A study of Homo sapiens with 4 samples.

Results

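Long noncoding RNAs with LINC, antisense or intronic gene symbols were followed in HCT116 cells after silencing of CTNNB1. HCT116 is an established human colon cancer cell line with an activating mutation in one copy of CTNNB1, the gene for beta-catenin. The arrays carried 67528 transcript clusters, the probe groups that each stand for a transcribed region. A cluster belonged to the group if it had exactly 1 gene symbol, if that symbol was LINC and a number or ended in -AS1, -AS2, -AS3 or -IT1, and if its mean over the 4 arrays exceeded 4.29 log2 units. The symbols fitted 1412 clusters of 1364 genes, of which 629 clusters of 601 genes were above that level and 783 were not. The members were 214 long intergenic (LINC) clusters, 377 antisense clusters and 38 sense-intronic (-IT1) clusters. The members were thus chosen by their mean measured level, so levels are given as description only. The average took in both treatments, and in 45 members 1 of the 2 groups had a mean at or under that level.

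Cells were transfected with siRNA at 50 nM using Lipofectamine RNAiMAX and harvested 48 h later. One group of 2 samples received control siRNA, the other group of 2 samples received CTNNB1 siRNA, and all were the same line without other treatment in the labels. The labels call the samples biological replicates without stating that they were separate cultures, so the p-values measure only the spread between these samples. The model is 1 cell line, 1 target gene and 1 time point. The fold changes below are on the log2 scale of the deposited values, which reaches beyond the range of a scanner reading.

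Long intergenic RNAs are transcribed from units of their own between protein-coding genes. Antisense RNAs come from the strand opposite a coding gene, and many start close to that gene's own promoter and run away from it or back across it. Sense-intronic RNAs lie inside an intron of a host gene on the same strand. As a class such RNAs are known for low levels and for restriction to particular cell types, and several act on chromatin, on microRNAs or on the stability of messenger RNAs. Beta-catenin is the co-activator that joins TCF/LEF factors on DNA when the Wnt pathway is active, and coding and noncoding genes can both be its targets.

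The starts of 7 transcripts on which the results turn are shown first, as the 250 bases before and 50 bases after the annotated start, from RefSeq on GRCh38.p14. TMPO-AS1, ZNF143-AS1, THAP9-AS1 and TPT1-AS1 are the called antisense RNAs whose start lies within 1000 bases of that of a called sense gene, 2 of them moving with it and 2 against it. LINC00152 (current name CYTOR) and PRRT3-AS1 had the largest rises, and LINC00294 had the largest fall. The windows are chr12:98516177-98516476 (minus strand) for TMPO-AS1, chr11:9460649-9460948 (minus strand) for ZNF143-AS1, chr4:82900867-82901166 (minus strand) for THAP9-AS1 and chr13:45341095-45341394 (plus strand) for TPT1-AS1. They are chr2:87455177-87455476 (plus strand) for LINC00152, chr3:9947154-9947453 (plus strand) for PRRT3-AS1 and chr11:33075900-33076199 (plus strand) for LINC00294. Capitals mark the 50 bases from the annotated start onward, except in TPT1-AS1, where they mark the 163 bases from the start of TPT1, read on the other strand, to the start of TPT1-AS1.
TMPO-AS1: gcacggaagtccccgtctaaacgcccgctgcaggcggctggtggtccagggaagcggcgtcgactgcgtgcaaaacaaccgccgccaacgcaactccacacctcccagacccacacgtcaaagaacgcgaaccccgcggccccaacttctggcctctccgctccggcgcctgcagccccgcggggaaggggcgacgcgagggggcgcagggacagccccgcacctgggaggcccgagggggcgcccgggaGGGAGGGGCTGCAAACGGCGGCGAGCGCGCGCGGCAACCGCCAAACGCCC
ZNF143-AS1: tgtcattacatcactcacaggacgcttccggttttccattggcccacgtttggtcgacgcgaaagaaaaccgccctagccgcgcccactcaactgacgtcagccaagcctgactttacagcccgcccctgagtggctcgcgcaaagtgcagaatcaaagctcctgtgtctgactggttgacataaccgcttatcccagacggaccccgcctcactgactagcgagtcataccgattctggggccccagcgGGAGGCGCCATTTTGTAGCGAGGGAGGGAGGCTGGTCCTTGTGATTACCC
THAP9-AS1: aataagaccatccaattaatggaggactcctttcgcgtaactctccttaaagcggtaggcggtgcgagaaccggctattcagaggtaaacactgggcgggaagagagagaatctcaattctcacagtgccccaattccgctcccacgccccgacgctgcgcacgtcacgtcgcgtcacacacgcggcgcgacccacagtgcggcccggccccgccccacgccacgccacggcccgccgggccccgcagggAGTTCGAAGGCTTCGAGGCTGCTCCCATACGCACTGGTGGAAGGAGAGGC
TPT1-AS1: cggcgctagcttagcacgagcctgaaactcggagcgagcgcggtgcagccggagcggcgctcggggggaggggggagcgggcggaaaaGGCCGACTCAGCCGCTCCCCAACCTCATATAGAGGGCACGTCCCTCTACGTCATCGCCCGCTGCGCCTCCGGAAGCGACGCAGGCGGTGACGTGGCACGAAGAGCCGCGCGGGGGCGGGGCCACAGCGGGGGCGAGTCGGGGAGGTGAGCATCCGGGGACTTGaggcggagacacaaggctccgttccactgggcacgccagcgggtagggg
LINC00152: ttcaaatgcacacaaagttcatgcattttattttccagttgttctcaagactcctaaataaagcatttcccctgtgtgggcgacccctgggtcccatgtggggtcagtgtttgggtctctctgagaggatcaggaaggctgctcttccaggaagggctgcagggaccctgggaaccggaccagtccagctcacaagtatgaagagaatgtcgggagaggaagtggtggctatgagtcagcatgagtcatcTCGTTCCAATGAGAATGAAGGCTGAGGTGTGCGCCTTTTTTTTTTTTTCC
PRRT3-AS1: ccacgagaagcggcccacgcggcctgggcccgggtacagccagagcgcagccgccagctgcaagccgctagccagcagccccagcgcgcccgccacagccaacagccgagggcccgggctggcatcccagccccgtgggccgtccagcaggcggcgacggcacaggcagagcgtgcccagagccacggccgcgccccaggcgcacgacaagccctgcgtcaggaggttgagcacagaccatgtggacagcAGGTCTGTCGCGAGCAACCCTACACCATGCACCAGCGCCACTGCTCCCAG
LINC00294: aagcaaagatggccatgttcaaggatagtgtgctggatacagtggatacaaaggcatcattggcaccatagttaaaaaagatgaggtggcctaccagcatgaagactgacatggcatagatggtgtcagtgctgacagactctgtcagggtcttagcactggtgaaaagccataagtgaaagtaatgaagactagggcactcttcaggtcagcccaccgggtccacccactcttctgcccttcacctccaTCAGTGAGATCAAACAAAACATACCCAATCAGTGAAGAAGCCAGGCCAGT
The start of TMPO lies 653 bases downstream of that of TMPO-AS1 and the start of THAP9 lies 181 bases downstream of that of THAP9-AS1, so each of these antisense RNAs runs back across its sense gene's first bases. The start of ZNF143 lies 314 bases upstream of that of ZNF143-AS1 and the start of TPT1 lies 162 bases upstream of that of TPT1-AS1, so these are divergent pairs. CG dinucleotides numbered 39 in the TMPO-AS1 window, 38 in TPT1-AS1, 32 in THAP9-AS1, 28 in PRRT3-AS1 and 21 in ZNF143-AS1, against 5 in LINC00152 and 1 in LINC00294. The median over all RefSeq promoter windows was 14. The windows were searched for the TCF/LEF motif as CTTTGAA or CTTTGAT on both strands, read as TTCAAAG or ATCAAAG on the other. Of the 7 windows only that of ZNF143-AS1 held it, as ATCAAAG. It was present in 39 of the 427 noncoding members with a RefSeq window (9.13%), beside 6.98% of all 27305 windows. By call, these were 3 of 25 called lower, 2 of 20 called higher and 34 of 382 not called (8.90%). The 2 called higher were PRKG1-AS1 and LINC00457, and LINC00457 passed the required mean only through the treated arrays.

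The labels were checked on the targeted gene. CTNNB1 read 10.06 and 10.20 log2 units with control siRNA and 6.50 and 6.65 with CTNNB1 siRNA, a log2 fold change of -3.56 (SE 0.10, adjusted p = 0.000145 in limma with Benjamini-Hochberg adjustment). The groups did not overlap. Across the 16580 clusters with 1 symbol and a mean above 4.29, replicate arrays correlated with r = 0.997 in either group. Control and treated arrays correlated there with r from 0.977 to 0.980. Among epithelial markers EPCAM, KRT8, KRT18 and KRT19 had means from 10.7 to 13.3, while CDX2 (4.12) and VIL1 (3.86), markers of intestinal epithelium, lay under the level required here. CDH1, the epithelial cadherin, read 6.80 and 7.20 with control siRNA and 9.06 and 9.48 with CTNNB1 siRNA, without overlap. Its part in the results below was not tested. The 7 fibroblast, endothelial and leukocyte markers had means from 2.83 (PECAM1) to 5.38 (COL1A1). Of these COL1A1, CD3E (4.62) and DCN (4.30) lay above the required level, so a mean above it does not by itself show expression. In bulk RNA, fewer cells of a kind and less RNA per cell cannot be told apart.

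Of the 629 members 65 changed. With CTNNB1 siRNA 27 of the 629 members rose and 38 fell, which is 10.3% of the members, against 29.4% of all 16580 clusters tested (limma, Benjamini-Hochberg adjusted p under 0.05 over all tested clusters). No cluster passed when any 1 of the 4 arrays was left out. Of the called members AGPAT4-IT1, LINC00457 and LINC00571 reached the required mean only through the treated arrays and LINC00961 only through the controls. Without members of that kind 24 of 584 rose and 37 fell (10.4%), a count chosen after the data were seen. Split by direction, 4.29% of the members rose against 14.0% of all tested clusters, and 6.04% fell against 15.4%. The median log2 fold change was -0.01 in the members and -0.02 over all tested clusters (-0.015 before rounding). Groups did not overlap in 269 members (42.8%), against 62.5% of all tested clusters. All 4879 called clusters were without overlap, so a lack of overlap adds no support to a call. Changes of at least 1.5-fold were called in 19 members (background 15.2%) and of at least 2-fold in 5 (background 5.55%).

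The 3 classes differed in their counts. Of the LINC clusters 12 rose and 13 fell (11.7% called), and of the antisense clusters 12 rose and 20 fell (8.49%). Of the 38 intronic clusters 3 rose and 5 fell (21.1%). With both groups above the required level, 10 of 197 LINC clusters rose and 12 fell (11.2%). On that count 12 of 351 antisense clusters rose and 20 fell (9.12%), and 2 of 36 intronic clusters rose and 5 fell (19.4%). The differences between classes were not tested. The median log2 fold change was -0.01 in the LINC and antisense clusters and -0.055 in the intronic ones.

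Low signal went with few calls. The median level was 5.13 log2 units in the members and 6.70 over all tested clusters, and the median SD between control replicates was 0.092 against 0.071. In level bands chosen after the values were seen, 11 of 283 members between 4.29 and 5 log2 units were called (3.89%), close to the 4.25% of 2280 protein-coding clusters at that level. Between 5 and 6 units 24 of 194 members were called (12.4%, coding 16.0%), and between 6 and 8 units 17 of 113 (15.0%, coding 37.0%). Above 8 units 13 of 39 were called (33.3%, coding 52.5%). Within the top 2 bands the members' median absolute change was smaller than that of coding clusters, 0.155 against 0.23 and 0.25 against 0.37, and their median SD was larger, 0.092 against 0.064 and 0.124 against 0.078. The part of signal level and spread in these shares was not tested.

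**Figure D1:**
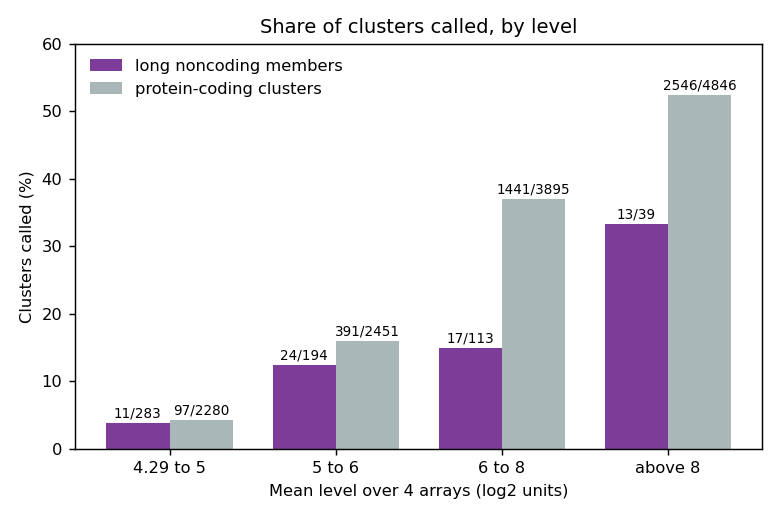
Share of clusters called at an adjusted p under 0.05 (y axis, percent) by band of mean level (x axis, log2 units), for the noncoding members and for protein-coding clusters, with the number of clusters in each group. The shares nearly meet in the lowest band (3.89% and 4.25%) and stand apart above 8 log2 units (33.3% and 52.5%).

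**Figure D2:**
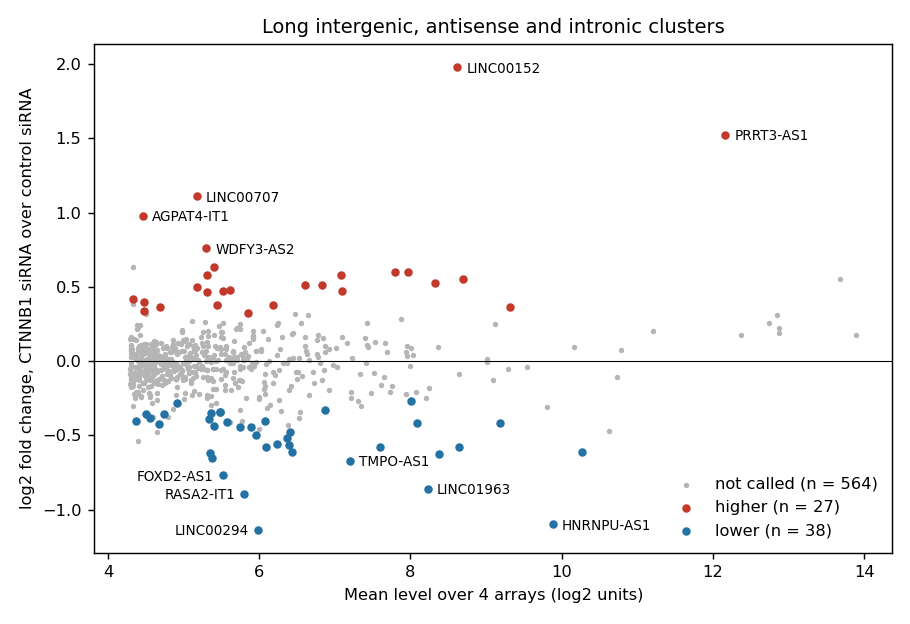
Each of the 629 members by its mean level over the 4 arrays (x axis, log2 units) and its log2 fold change with CTNNB1 siRNA (y axis, relative to control siRNA), with the 27 called higher and the 38 called lower in colour. LINC00152 and PRRT3-AS1 stand above the rest, and LINC00294 and HNRNPU-AS1 have the lowest values.

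Among the LINC transcripts that rose, LINC00152 moved furthest. LINC00152, or CYTOR, is a mainly cytoplasmic RNA reported to be raised in many cancers. It read 7.88 and 7.38 log2 units in the control arrays and 9.95 and 9.27 in the CTNNB1 siRNA arrays, a log2 fold change of 1.98 (SE 0.26, adjusted p = 0.0038 in limma). Both treated arrays were above both controls, and the first replicate was the higher one in either group. The gene has a near-identical copy, MIR4435-2HG, with which its probes may share signal, and a further cluster annotated to both names was not used, so the value may belong to either copy.

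LINC00707, a cytoplasmic RNA studied in several carcinomas, read 4.73 and 4.51 with control siRNA and 5.86 and 5.60 with CTNNB1 siRNA. Its log2 fold change was 1.11 (SE 0.13, adjusted p = 0.00232 in limma), without overlap of the groups. LINC00857 went from 7.68 and 7.66 to 8.30 and 8.24 (log2 fold change 0.60, adjusted p = 0.00345 in limma), and LINC01004 from 6.76 and 6.82 to 7.23 and 7.51 (0.58, adjusted p = 0.014 in limma). LINC01234, an RNA described in gastric and colon tumours, went from 8.04 and 8.08 to 8.52 and 8.65 (log2 fold change 0.53, adjusted p = 0.00744 in limma). In each of these the treated arrays lay above both controls. The other LINC clusters that rose had log2 fold changes between 0.33 (LINC00460) and 0.52 (LINC00941), both RNAs linked to epithelial tumours.

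LINC00294 had the largest fall of any member. It read 6.62 and 6.47 in the control arrays and 5.06 and 5.76 in the CTNNB1 siRNA arrays, a log2 fold change of -1.14 (SE 0.23, adjusted p = 0.0149 in limma). The groups did not overlap, but the treated replicates stood apart, and the estimate was -0.79 without the first treated array and -1.49 without the second. LINC01963 was steadier, at 8.73 and 8.59 against 7.80 and 7.80 (log2 fold change -0.86, SE 0.09, adjusted p = 0.00161 in limma). LINC00641, which lies next to HNRNPC, went from 10.71 and 10.43 to 9.94 and 9.98 (log2 fold change -0.61, adjusted p = 0.0116 in limma). LINC00339 went from 5.57 and 5.75 to 5.13 and 4.95 (-0.62, adjusted p = 0.00909 in limma). LINC00266-1, which RefSeq now names SEPTIN14P20, a pseudogene, went from 8.86 and 8.51 to 8.05 and 8.07 (-0.63, adjusted p = 0.0165 in limma). The other LINC clusters that fell had log2 fold changes between -0.56 (LINC00997) and -0.27 (LINC01881).

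The antisense cluster with the largest rise was PRRT3-AS1, from the strand opposite PRRT3, which encodes a proline-rich transmembrane protein. It read 11.59 and 11.21 log2 units with control siRNA and 13.20 and 12.65 with CTNNB1 siRNA, a log2 fold change of 1.53 (SE 0.21, adjusted p = 0.00454 in limma). WDFY3-AS2 read 4.86 and 4.98 against 5.71 and 5.65 (0.76, SE 0.08, adjusted p = 0.00218 in limma), and PRKG1-AS1 read 5.04 and 5.12 against 5.72 and 5.71 (0.64, adjusted p = 0.00309 in limma). VPS9D1-AS1 went from 7.51 and 7.49 to 7.99 and 8.21 (0.60, adjusted p = 0.00811 in limma). Treated arrays were above both controls in each of these. The remaining antisense clusters that rose had log2 fold changes from 0.34 (TRPC7-AS2) to 0.55 (TPT1-AS1).

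The antisense cluster with the largest fall was HNRNPU-AS1, at 10.53 and 10.34 against 9.20 and 9.47 (log2 fold change -1.10, SE 0.12, adjusted p = 0.00224 in limma). RefSeq now gives the gene of this cluster as HNRNPU, the coding gene of a nuclear RNA-binding protein, so the value is not that of an antisense RNA by that name. Another cluster of HNRNPU had a log2 fold change of -1.06 (SE 0.10). FOXD2-AS1, a divergent partner of the forkhead gene FOXD2 reported to be raised in colorectal tumours, went from 5.86 and 5.94 to 4.97 and 5.29 (-0.77, SE 0.12, adjusted p = 0.00723 in limma). GAS5-AS1 lies opposite GAS5, a host gene of small nucleolar RNAs. It went from 5.74 and 5.67 to 5.12 and 4.98 (-0.66, SE 0.09, adjusted p = 0.00395 in limma), and the GAS5 cluster carried several symbols and was not used. EPB41L4A-AS1, from the strand opposite the gene of a cytoskeletal band protein, went from 8.96 and 8.89 to 8.29 and 8.40 (-0.58, SE 0.08, adjusted p = 0.00518 in limma). In each of these the treated arrays lay below both controls.

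Of the sense-intronic RNAs, ARHGAP26-IT1 and TSPAN9-IT1 rose, as counted above with AGPAT4-IT1, and RASA2-IT1, ANP32A-IT1, TCF7L1-IT1, KCND3-IT1 and E2F3-IT1 fell. AGPAT4-IT1 read 3.89 and 4.06 against 4.94 and 4.97 (log2 fold change 0.98). Because it passed the required mean only through the treated arrays, its difference is a description, with no test. RASA2-IT1 read 6.11 and 6.39 against 5.28 and 5.43 (-0.90, SE 0.12, adjusted p = 0.00397 in limma). ARHGAP26-IT1 read 4.91 and 5.12 against 5.43 and 5.76 (0.58, adjusted p = 0.027 in limma), and ANP32A-IT1 6.82 and 6.67 against 5.97 and 6.29 (-0.62, adjusted p = 0.0177 in limma). In a fit to all clusters above the required level, named or not, the latter 2 no longer passed (adjusted p = 0.0706 and 0.0511 in limma).

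**Figure D3:**
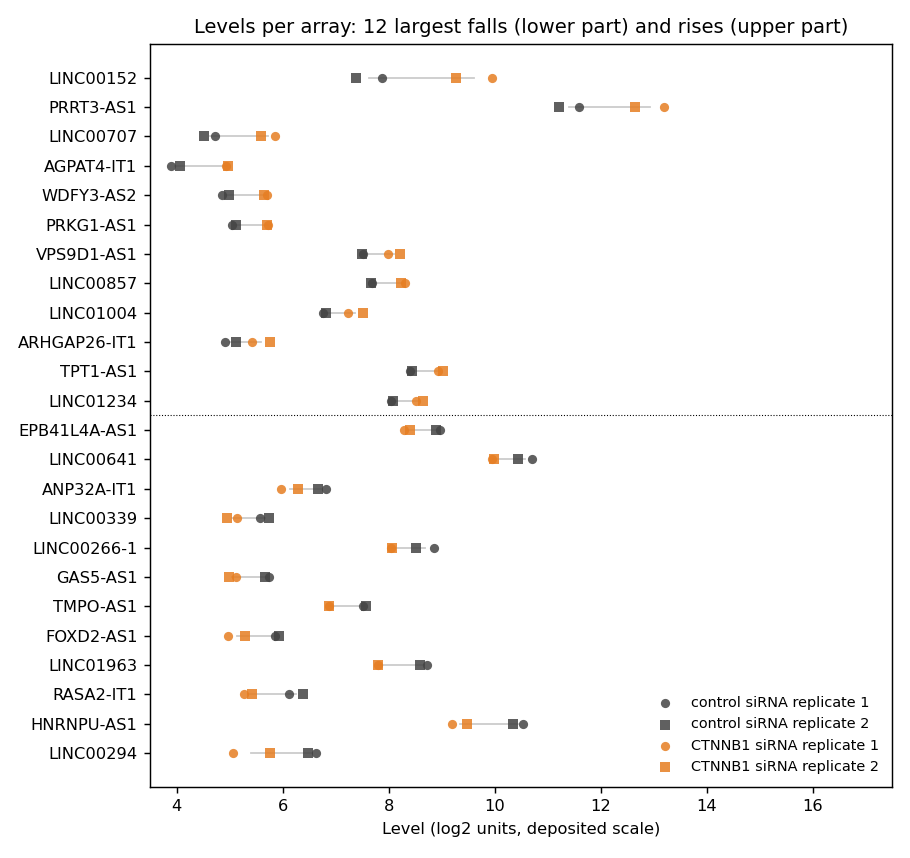
Levels on each of the 4 arrays (x axis, log2 units on the deposited scale) of the 12 members with the largest rise and the 12 with the largest fall (y axis), with control siRNA in grey, CTNNB1 siRNA in orange and a shape per replicate number. The 24 were chosen among called members whose groups did not overlap. The replicates stand furthest apart in LINC00152 and LINC00294.

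Each antisense or intronic RNA was then set beside its sense or host gene, the gene left when the ending of the symbol is removed. Of 395 such symbols 34 had no cluster of that gene with 1 symbol, 5 are themselves now named as the sense gene, and 59 had a sense gene at or under 4.29 log2 units, which left 297 pairs. The sense gene was called in 135 pairs (45.5%, beside 33.2% of all 13472 protein-coding clusters tested). Each sense gene was read by its cluster with the highest mean, and one with several such RNAs, as WDFY3 or USP12, was counted in each pair. Across the level bands the share of coding clusters called rose from 4.25% to 52.5%, and the part of level in this gap was not tested. The noncoding partner was called in 30 pairs, beside 29.4% of all tested clusters. In 19 pairs both were called, and they went the same way in 14 and opposite ways in 5. The latter include TNRC6C-AS1, a cluster that RefSeq now names TMC6, a coding gene. In 116 pairs the sense gene alone was called, in 11 the noncoding RNA alone, and in 151 neither. The 95% interval of the difference in change excluded 0 in 126 pairs. Across all 297 pairs the log2 fold changes correlated with r = 0.31 (Spearman rho 0.24), as a description, since both partners were read on the same 4 arrays.

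The correlation was r = 0.77 (rho 0.72) in the 33 intronic pairs and r = 0.21 (rho 0.17) in the 264 antisense pairs, a difference that was not tested. All 5 intronic pairs with both partners called went in the same direction, as did 9 of the 14 antisense pairs. Without pairs in which a partner had 1 group at or under the required level, AGPAT4 and PRKG1 drop out, which leaves 4 of 4 intronic and 8 of 13 antisense pairs. The correlations over such pairs were r = 0.67 (n = 31) and r = 0.19 (n = 246). AGPAT4, an acyltransferase of phospholipid synthesis, read 6.15 and 6.32 against 8.08 and 8.62 (log2 fold change 2.12, SE 0.18), above the 0.98 of AGPAT4-IT1. ARHGAP26 had a log2 fold change of 1.19 beside 0.58 in ARHGAP26-IT1, and TSPAN9, a tetraspanin, 0.81 beside 0.50 in TSPAN9-IT1. RASA2, a Ras GTPase-activating protein, had -0.60 beside -0.90 in RASA2-IT1, and ANP32A, a nuclear phosphoprotein, -0.51 beside -0.62 in ANP32A-IT1. A probe set inside an intron also reads the unspliced host transcript, and its share of the signal was not tested. E2F3-IT1 fell (-0.42) while E2F3, a cell cycle transcription factor, had a log2 fold change of 0.12 (adjusted p = 0.435 in limma), and the 95% interval of their difference was -0.81 to -0.25.

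**Figure D4:**
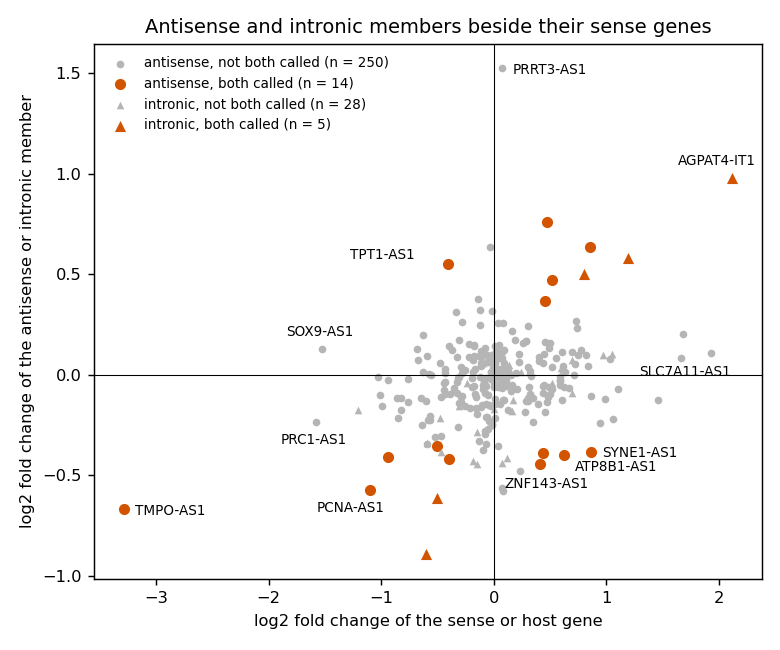
Log2 fold change of each antisense or intronic member (y axis) against that of its sense or host gene (x axis) in 297 pairs, with circles for antisense and triangles for intronic RNAs, in colour where both partners were called. The 116 pairs called for the sense gene alone are among the grey points, as is PRRT3-AS1 at 1.53.

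Among the pairs with both partners called, TMPO had the largest fall of a sense gene. TMPO, the gene of lamina-associated nuclear membrane proteins, read 13.58 and 13.56 with control siRNA and 10.13 and 10.45 with CTNNB1 siRNA, a log2 fold change of -3.28 (SE 0.12, adjusted p = 0.000209 in limma). TMPO-AS1 read 7.51 and 7.57 against 6.87 and 6.87 (-0.67, SE 0.08, adjusted p = 0.00239 in limma). Both fell, the antisense RNA by less, with a difference of 2.61 (95% interval 2.26 to 2.96). PCNA, the sliding clamp of DNA replication, had a log2 fold change of -1.10 beside -0.58 in PCNA-AS1 (6.46 and 6.30 against 5.78 and 5.83). THAP9, a transposase-derived gene, had -0.40 beside -0.42 in THAP9-AS1, and MDC1, a mediator of the DNA damage checkpoint, -0.50 beside -0.36 in MDC1-AS1. CERS6, a ceramide synthase, had -0.94 beside -0.41 in CERS6-AS1, and the CERS6 value was -0.60 without the first CTNNB1 siRNA array. Rising together were WDFY3, an autophagy scaffold (0.48, WDFY3-AS2 0.76), LMLN, a metallopeptidase (0.52, antisense 0.47), and NHS (0.46, antisense 0.37). WDFY3-AS1, another antisense RNA of WDFY3, had -0.14 (adjusted p = 0.279 in limma). Its difference from WDFY3 was -0.61 (95% interval -0.89 to -0.33). PRKG1, a cGMP-dependent kinase, had 0.86 beside 0.64 in PRKG1-AS1. PRKG1 passed the required mean only through the treated arrays, so its rise is a description, with no test.

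In 5 antisense pairs the partners were called in opposite directions. TPT1-AS1 read 8.41 and 8.44 against 8.92 and 9.03, a rise of 0.55 on the log2 scale (SE 0.08, adjusted p = 0.00567 in limma). TPT1, the gene of the translationally controlled tumour protein, read 12.41 and 12.43 against 11.97 and 12.05, a log2 fold change of -0.41 (SE 0.08, adjusted p = 0.0131 in limma). The groups overlapped for neither gene, and the difference was 0.96 (95% interval 0.69 to 1.23) between transcripts whose starts are 162 bases apart in the sequence above. In the other 4 pairs the cluster with the antisense symbol fell and the sense gene rose, though that of TNRC6C-AS1 is now named as a coding gene.

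SYNE1-AS1 read 4.88 and 4.62 against 4.40 and 4.33 (log2 fold change -0.39, adjusted p = 0.0476 in limma), and SYNE1, a nuclear envelope spectrin-repeat protein, 4.72 and 4.74 against 5.71 and 5.48 (0.87). SYNE1-AS1, and SYNE1 with control siRNA, thus read near the leukocyte marker CD3E (mean 4.62). ATP8B1-AS1 read 6.16 and 6.39 against 5.90 and 5.85 (-0.40, adjusted p = 0.034 in limma), and ATP8B1, a phospholipid flippase, 8.15 and 8.32 against 8.76 and 8.96 (0.63). ZNF143-AS1 read 6.08 and 6.15 against 5.60 and 5.74 (-0.45, adjusted p = 0.0146 in limma), and ZNF143, a zinc finger transcription factor, 9.43 and 9.32 against 9.80 and 9.77 (0.41). The groups overlapped in none of these. TNRC6C-AS1 had -0.39 (adjusted p = 0.0142 in limma) beside 0.44 in TNRC6C, a protein of microRNA silencing, but RefSeq now names that cluster TMC6, a neighbouring coding gene. The differences, antisense minus sense, were -1.25 (95% interval -1.59 to -0.91) for SYNE1, -1.03 (-1.34 to -0.71) for ATP8B1, -0.86 (-1.17 to -0.54) for ZNF143 and -0.83 (-1.18 to -0.48) for TNRC6C. In the fit to all clusters above the required level, named or not, these 4 clusters with antisense symbols no longer passed (adjusted p between 0.0501 and 0.118 in limma). SYNE1-AS1 had -0.26 without the first control array.

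**Figure D5:**
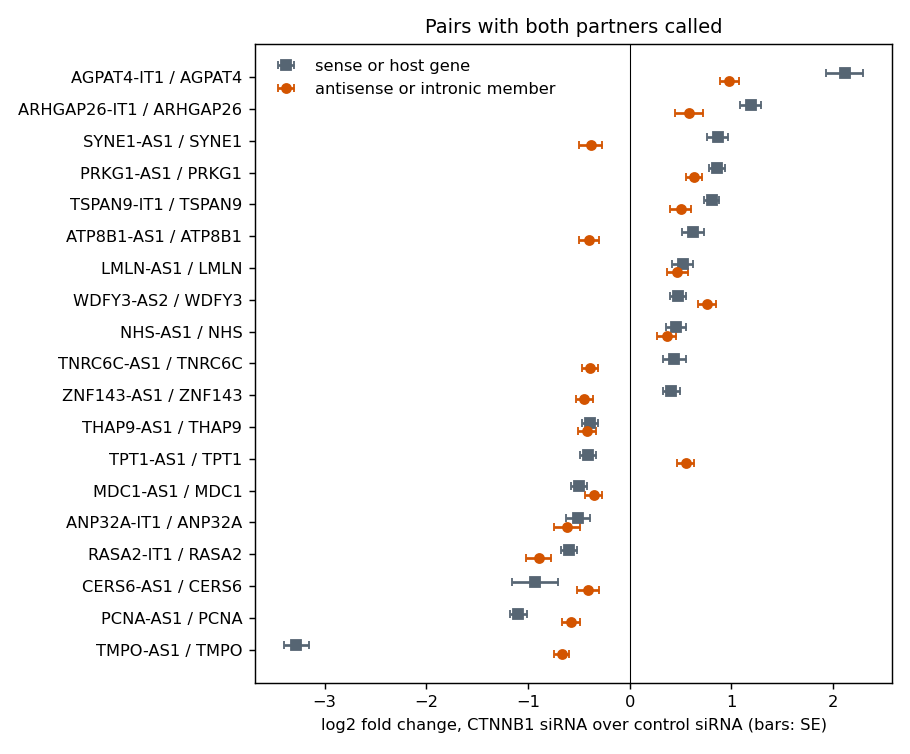
Log2 fold changes with CTNNB1 siRNA (x axis, relative to control siRNA, bars show the moderated SE) for both partners of the 19 pairs in which both were called (y axis), with squares for the sense or host gene and circles for the antisense or intronic RNA. The partners lie on opposite sides of 0 in 5 pairs, among them TNRC6C-AS1, a cluster now named TMC6. TMPO has the lowest value at -3.28.

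Where the antisense RNA alone was called, PRRT3-AS1 stood out, since PRRT3 read 4.76 and 4.79 against 4.84 and 4.86 (log2 fold change 0.08, adjusted p = 0.54 in limma). The difference was 1.45 (95% interval 0.91 to 1.99). PRRT3 lay in the level band from 4.29 to 5 log2 units, where 4.25% of coding clusters were called. EPB41L4A had 0.09 beside the -0.58 of its antisense RNA, and the interval of the difference was -0.96 to -0.37. For VCAN, a proteoglycan gene (-0.59, adjusted p = 0.0604), and TCF7L1, a TCF/LEF factor (-0.15, adjusted p = 0.238 in limma), the intervals of the difference from VCAN-AS1 and TCF7L1-IT1 included 0.

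Several sense or host genes changed strongly beside an antisense or intronic RNA that was not called. SLC7A11, the cystine transporter, read 11.96 and 11.40 against 13.76 and 13.46 (log2 fold change 1.93, adjusted p = 0.00185 in limma), beside 0.11 in SLC7A11-AS1 (difference -1.82, 95% interval -2.21 to -1.43). SOX9, a transcription factor of intestinal crypts, read 11.97 and 12.42 against 10.23 and 11.11 (-1.53, adjusted p = 0.0149 in limma), beside 0.13 in SOX9-AS1 (interval of the difference 0.85 to 2.46). PRC1, a cytokinesis protein, fell by 1.58 on the log2 scale beside -0.24 in PRC1-AS1, and ALMS1, a centrosomal protein, fell by 1.21 beside -0.18 in ALMS1-IT1. The intervals of both differences excluded 0. These noncoding clusters had means under 6 log2 units. Of all tested clusters 4.40% were called between 4.29 and 5 units and 14.5% between 5 and 6, beside 29.4% at all levels. The part of level in these pairs was not tested. These 4 pairs were chosen after their values were seen.

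The genomic arrangement was known for 197 of the 297 pairs. The starts lay within 1000 bases in 62 pairs, where 5 antisense RNAs and 28 sense genes (45.2%) were called. In 4 of these pairs both were called, 2 pairs moving together and 2 in opposition. In 115 pairs with otherwise overlapping genes on opposite strands 10 members and 54 sense genes (47.0%) were called. Both partners were called in 6, 4 in the same direction and 2 in opposite ones. The shares called were 10.3% over all members and 29.4% over all tested clusters. The log2 fold changes correlated with r = 0.32 in the first kind and r = 0.19 in the second, as a description.

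For LINC RNAs the nearest protein-coding gene in RefSeq order took the place of the sense gene. It was tested for 135 of 206 LINC symbols, and for 63 of these symbols the neighbour was called (46.7%, beside 33.2% of all coding clusters). Each neighbour was read by its cluster with the highest mean, and the part of level in this gap was not tested. A gene next to several LINC symbols was counted once for each. Such genes include KLF12, SLC7A11, ZDHHC20 and POFUT2, which were called, and MRPL39, which was not. Of these 135 LINC RNAs 20 were called, beside 29.4% of all tested clusters. Both were called in 10, of which 8 went in the same direction. LINC00294 lay beside TCP11L1 (-0.70), LINC01963 beside XRCC5, a DNA end-binding protein of double-strand break repair (-0.49), and LINC00266-1 beside PCMTD2 (-0.79). LINC00857 lay beside ANXA11, an annexin (1.11). The 2 that went in opposite directions were LINC00674 (0.37) beside KPNA2, a nuclear import receptor (-0.70), and LINC00941 (0.52) beside CAPRIN2, an RNA-binding protein (-0.62). The neighbours of LINC00641 (HNRNPC, -0.28), LINC00339 (CELA3A, 0.02), LINC01234 (RBM19, 0.19) and LINC01004 (KMT2E, 0.24) were not called.

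A list of 44 well-studied noncoding RNAs with such symbols had 25 symbols among the members, each taken by its cluster with the highest mean. LINC00152, LINC01234 and LINC00941 rose, FOXD2-AS1, TMPO-AS1 and DLGAP1-AS1 fell, and 19 were not called, beside 10.3% of all members and 29.4% of all tested clusters called. The median log2 fold change of the list was 0.04. OIP5-AS1, a cytoplasmic RNA known as cyrano in fish, read 9.93 and 10.00 against 9.57 and 9.74 (-0.31, adjusted p = 0.0548 in limma). The groups did not overlap, and it missed the threshold. PSMD6-AS2 (0.11), PCBP1-AS1 (-0.17) and LINC00875, now LINC01138 (0.29, adjusted p = 0.0552 in limma), were not called. DLGAP1-AS1 went from 7.73 and 8.05 to 7.14 and 7.49 (-0.58, adjusted p = 0.0442 in limma). It did not pass in the fit to all clusters, named or not (adjusted p = 0.102 in limma).

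Of the 17 symbols with several member clusters, LINC00963 alone had some called and some not. Its cluster with the highest signal read 12.90 and 12.65 against 12.98 and 12.95 (log2 fold change 0.19, adjusted p = 0.252 in limma), with no overlap of the groups. Another read 6.30 and 6.40 against 6.88 and 6.84 (0.51, adjusted p = 0.00708 in limma). The members with the highest mean levels were LINC01000, LINC01002 and LINC00273, none of them called, although LINC01002 had a log2 fold change of 0.55 (adjusted p = 0.0731 in limma). Just above the required level were LINC02870, KANSL1-AS1 and LINC03103, each at a mean of 4.295. Just under it were LINC01545 at 4.29 and LINC00632 and a further KCTD21-AS1 cluster at 4.2875.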

How the data were processed

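Total RNA from 4 HCT116 samples was labelled with biotin as single-stranded cDNA and hybridised to Affymetrix whole-transcript arrays, per the labels' protocols. Values were deposited as log2 levels per transcript cluster, which the authors made with Affymetrix Expression Console and RMA, per the submitters' processing notes. Software versions, the kind of RMA and the build were not given in the sources used here. Detection calls were not used, and the number of arrays limits the precision. Of 67528 clusters 23781 had 1 symbol in the platform annotation, and those with several (1543) were left out. Symbols were updated through RefSeq of GRCh38.p14, which held 628 of the 629 members. RefSeq now names 13 members as coding genes, 3 of them called (HNRNPU-AS1, LINC00961 and TNRC6C-AS1). Of the member clusters 13 repeat the values of another cluster of the same symbol.

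All 16580 one-symbol clusters with a mean above 4.29 entered a limma fit (version 3.58.1, R 4.3.3) by lmFit and untrended eBayes with the 2 groups as its sole term, giving 5.65 moderated degrees of freedom. The p-values are 2-sided and Benjamini-Hochberg adjusted over all of them, with a threshold of 0.05. Differences within pairs were fitted to within-array differences. The cluster with the highest mean stood for a sense gene. Figures used matplotlib 3.10.9 under Python 3.11.15.

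The members, the lists and the rule for named genes were chosen with earlier results of these data known. The text names the 12 largest rises and falls among called members without overlap, their sense or nearest coding genes, the pairs called in opposite directions, the 3 highest members, those next to the required level and up to 8 members of a list of well-studied RNAs and 6 of other named noncoding RNAs. Others named are examples chosen after their values were seen. Alternatives were another percentile for the level, no level filter, all clusters named or not, a further quantile normalization, a trended prior, 1 cluster per gene, current symbols, a minimum of 1.5-fold, the replicate number as a block, and leaving out each array.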

Additional observations from a re-analysis of the deposited data

How the results depend on the processing

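No cluster of the 16580 passed the adjusted threshold in limma without any 1 of the 4 arrays, so every count of calls above, for members, classes, pairs and all clusters, ranged from 0 to 0. In these fits 72 to 82 members and 4899 to 5119 clusters had an unadjusted p under 0.05, and the lowest adjusted p was 0.056 to 0.078. CTNNB1 had log2 fold changes from -3.63 to -3.48 in these fits. The groups overlapped in none of the 65 called members, so leaving out 1 array could not turn their direction and adds no support. Without the first control array 2 of them moved by over 1.5 times, SYNE1-AS1 (to -0.26) and KIAA0196-AS1 (from -0.52 to -0.31). With all clusters above the required level, named or not, in the fit and the adjustment, 28 of the 65 calls were kept, 14 higher and 14 lower. Of these the LINC calls were 8 higher and 7 lower, and the antisense and intronic calls 6 higher and 7 lower. Above the 50th percentile of level, LINC calls lower numbered 8, antisense and intronic calls higher 8, pairs in the same direction 9 and in opposite directions 3. A minimum of 1.5-fold left 8 higher and 11 lower. The labels do not say that replicate numbers mark a shared culture, and deviations of same-numbered arrays correlated with r = 0.275. With the number as a replicate block 47 members were called, 42 of them among the 65, against 4045 of all 16580 clusters. In that fit 23 members were lower, 6 LINC clusters were lower and 3 pairs went in opposite directions. LINC00294, LINC00266-1, LINC00339, LINC00641, ANP32A-IT1, SYNE1-AS1 and ATP8B1-AS1 then missed the threshold (adjusted p between 0.0537 and 0.0881). A further quantile normalization kept 61 of the 65 calls, a trended prior 64 and no level filter 55. DLGAP1-AS1 missed the threshold with the normalization (0.0546) and without the filter (0.0627), and SYNE1-AS1 without the filter (0.0649). No called value turned its direction under any alternative run, but only the further quantile normalization could have turned one. The other runs left the fold changes as they were or dropped 1 array from groups without overlap.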

Other observations

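Other named long noncoding RNAs, whose symbols are neither LINC nor antisense nor intronic, were read from a list of 46. Of these 17 had a tested cluster with 1 symbol, 1 rose, 4 fell and 12 were not called (29.4% called, the same share as over all tested clusters), with a median log2 fold change of -0.02 (-0.015 before rounding). UCA1, an RNA first described in bladder carcinoma, read 11.27 and 11.55 log2 units with control siRNA and 13.57 and 13.65 with CTNNB1 siRNA (log2 fold change 2.20, SE 0.11, adjusted p = 0.000376 in limma). The groups did not overlap. CASC2 read 6.32 and 6.24 against 5.51 and 5.53 (-0.76, SE 0.08). SNHG17, a host of small nucleolar RNAs, had a log2 fold change of -0.36, DANCR -0.36 and RMRP, the RNA of a ribosomal RNA processing enzyme, -0.33.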
